A study of Mus musculus with 64 samples.

Results

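Replication-dependent histone genes were measured in whole hearts of mice lacking BMAL1 in cardiomyocytes (CBK, called KO here) and of their wild type (WT) littermates. The genes were taken as every array probe whose platform symbol names a clustered H4, H3, H2B, H2A or linker H1 gene, and a probe was kept when its detection p was under 0.01 on at least 4 arrays. Of 64 such probes on the array, 35 were kept, for 33 genes, among 12101 probes kept of 25697 in all. The kept probes were 7 for H4, 7 for H3, 10 for H2B, 10 for H2A and 1 for H1. The array names linker genes in the form H1f2, which RefSeq lists as the older H1-2 and Hist1h1c forms, and a narrower reading of the name rule kept the same 35 probes.

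The mice were males on the C57Bl/6J background with food and water freely available, with lights on for 12 h and off for 12 h of each day. Hearts were taken every 3 h at 8 zeitgeber times (ZT, counted in hours from lights on). Each genotype and time had 4 arrays, 64 in all. KO hearts carry the deletion in cardiomyocytes, so their other cell types still have BMAL1, and neither the promoter behind the deletion nor the age of the mice is stated in the labels. The labels give every sample a number but do not state that it was a mouse of its own. The p-values therefore speak of the spread between samples, part of which can be technical.

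The core histones H4, H3, H2B and H2A form the nucleosome, the spool around which DNA is wrapped, and the linker histone H1 binds where the DNA enters and leaves it. The clustered genes are known as replication-dependent because dividing cells express them in S phase, while most heart muscle cells of an adult have left the cell cycle. Their transcripts usually end in a stem-loop in place of a poly(A) tail, and some of them are also found with a tail. Labelling here started from an oligo(dT) primer, which binds a tail, so the arrays favoured tailed transcripts, and the share of each gene's transcripts with a tail was not measured. BMAL1 pairs with CLOCK and drives the daily clock by binding E-box elements of DNA.

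The arrays detected between 9237 and 10605 probes each, 9972 ± 350 in KO and 9953 ± 318 in WT (mean ± SD, n = 32 each). Of the 64 arrays, 4 lay further from the mean of their group than the rest, by over 1.5 times the spread of a typical array. They were KO ZT9 replicate 170, KO ZT9 replicate 206, WT ZT6 replicate 1 and KO ZT6 replicate 2. Leaving out the first 3 of them left 20 histone probes higher and 1 lower in KO, the same counts as with them. The Arntl probe, for the gene of BMAL1, had a flattened rhythm, with an amplitude of 0.59 ± 0.08 in KO and 1.60 ± 0.08 in WT on the log2 scale (SE, limma adjusted p = 2.2e-09 for the rhythm difference). Its 24 h mean was 6.71 in KO and 6.64 in WT, and since the position of this probe in the gene is not known here, it does not check the deletion. Standard errors below reflect the spread between arrays, while some sizes also depend on the processing.

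Histone transcripts of chromosome 13 were higher in KO hearts for most H4, H3, H2B and H1 probes, while those of H2A genes on the same chromosome did not pass the test in either direction. The values are log2 intensities after background correction and quantile normalization, and the 24 h mean is the level fitted by a daily cosine curve in each genotype. Of the 35 probes, 20 were higher and 1 was lower in KO at an adjusted p under 0.05 in limma, over all 12101 probes. In the same comparison 34.4% of all probes were called, 17% higher and 17.4% lower (2059 and 2100 probes). With median scaling in place of quantile normalization these were 2969 and 824 probes, and 21 histone probes were higher and 1 lower. The median difference, KO minus WT, was 0.39 over the histone probes and -0.01 over all probes. By class it was 1.20 for H4, 0.40 for H3, 0.55 for H2B, -0.14 for H2A and 0.66 for the single H1 probe. Probes detected on all 64 arrays, 26 of the 35, divided into 17 higher, 1 lower and 8 not called. The probe of H3c1 and one of H3c14 passed the detection filter through KO arrays alone, and of the 33 other probes 19 were higher and 1 lower. In whole tissue, a change in the number of cells of a type and a change in RNA per cell cannot be told apart. Histone genes of one class are near copies of each other, so a probe may also read a sister gene, and the values below are uncertain to that extent as to which copy they come from.

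**Figure D1:**
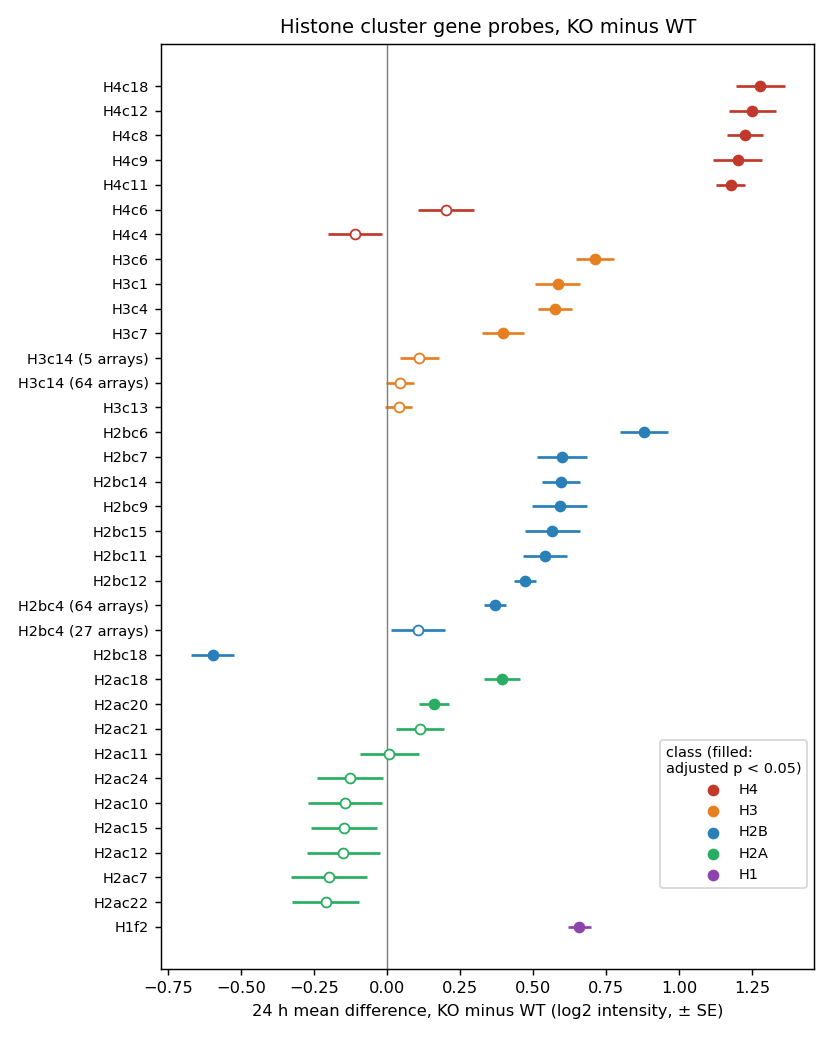
Difference of the 24 h mean between KO and WT for each of the 35 histone probes, in log2 intensity with its standard error (32 arrays per genotype), grouped by class. Filled points passed an adjusted p of 0.05. Of the H4 points, 5 lie between 1.18 and 1.28, H2bc18 lies alone at -0.60, and the H2A points of chromosome 13 lie between -0.21 and 0.01.

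The promoters of the 4 genes with the largest differences are shown here because these H4 genes moved together, and those of H2bc15 and H2bc18 because these H2B genes moved in opposite directions (chosen after their values were seen). Each is the 300 bases of RefSeq (GRCm38.p6) that run from 250 before to 50 after the annotated start, read 5′ to 3′ on the gene's strand. Capitals mark the motifs searched on both strands, which were CACGTG (the E-box), CCAAT (the box bound by NF-Y), TATAAA (the TATA box) and ATTTGCAT (the octamer element known from H2B promoters).
H4c18, chr13:21832148-21832447, minus strand: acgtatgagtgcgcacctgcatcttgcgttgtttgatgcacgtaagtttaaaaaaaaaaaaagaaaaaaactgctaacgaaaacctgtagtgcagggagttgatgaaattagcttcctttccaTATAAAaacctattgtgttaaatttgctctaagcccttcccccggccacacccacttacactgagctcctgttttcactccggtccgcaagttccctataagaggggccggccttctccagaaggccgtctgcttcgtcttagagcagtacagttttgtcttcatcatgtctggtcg
H4c12, chr13:21750504-21750803, minus strand: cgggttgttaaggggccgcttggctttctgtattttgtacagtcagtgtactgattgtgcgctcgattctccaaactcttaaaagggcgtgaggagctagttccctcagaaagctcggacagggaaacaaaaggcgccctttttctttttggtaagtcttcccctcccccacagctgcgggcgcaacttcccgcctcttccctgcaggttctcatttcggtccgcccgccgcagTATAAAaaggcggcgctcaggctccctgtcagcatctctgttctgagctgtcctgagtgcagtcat
H4c8, chr13:23530794-23531093, plus strand: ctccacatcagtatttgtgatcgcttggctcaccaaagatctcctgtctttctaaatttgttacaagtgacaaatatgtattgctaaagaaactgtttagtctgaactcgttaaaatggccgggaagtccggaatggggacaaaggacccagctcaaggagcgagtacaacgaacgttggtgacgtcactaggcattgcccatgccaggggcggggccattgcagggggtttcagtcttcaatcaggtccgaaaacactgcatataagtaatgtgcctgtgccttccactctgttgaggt
H4c9, chr13:22041313-22041612, minus strand: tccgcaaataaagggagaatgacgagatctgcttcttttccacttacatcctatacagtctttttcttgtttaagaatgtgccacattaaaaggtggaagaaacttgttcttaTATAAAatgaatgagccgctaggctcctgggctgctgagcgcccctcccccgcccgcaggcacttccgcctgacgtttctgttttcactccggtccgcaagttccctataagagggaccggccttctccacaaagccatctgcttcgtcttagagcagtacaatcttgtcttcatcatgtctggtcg
H2bc15, chr13:21753826-21754125, plus strand: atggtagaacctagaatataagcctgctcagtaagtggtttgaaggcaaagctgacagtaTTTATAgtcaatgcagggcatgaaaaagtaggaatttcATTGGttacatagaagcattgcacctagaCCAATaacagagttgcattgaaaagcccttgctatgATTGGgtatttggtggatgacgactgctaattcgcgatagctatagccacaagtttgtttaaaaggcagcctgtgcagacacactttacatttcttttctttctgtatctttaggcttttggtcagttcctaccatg
H2bc18, chr3:96269450-96269749, plus strand: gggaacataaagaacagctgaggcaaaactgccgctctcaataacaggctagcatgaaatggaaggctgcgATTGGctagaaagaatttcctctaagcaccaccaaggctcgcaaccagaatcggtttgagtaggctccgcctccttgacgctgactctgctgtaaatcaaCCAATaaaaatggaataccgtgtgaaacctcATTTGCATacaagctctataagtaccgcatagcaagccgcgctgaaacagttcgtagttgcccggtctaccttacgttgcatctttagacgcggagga

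The H4 windows of H4c18, H4c12 and H4c9 each hold 1 TATAAA and none of the other motifs, and that of H4c8 holds none of the motifs searched. The TATAAA of H4c12 begins 16 bases before the annotated start, and those of H4c18 and H4c9 begin 127 and 137 bases before it. H2bc15 holds CCAAT 3 times and TATAAA once, and H2bc18 holds CCAAT at 2 places and the octamer once. Over all measured genes, 30 of 33 had a window, 31 windows in all, and none was in the table for H2bc4, H3c1 and H3c7. CACGTG was in 0 of the 31 windows, against 7.15% of all 32851 windows of the same length. CCAAT was in 25 of the 31 (80.6%, against 37.4% of all windows), with 1 of 7 H4 windows and every window of the other classes. TATAAA was in 17 (54.8%, against 13.6%), among them 6 of 7 H4 windows. The octamer was in 6 (19.4%, against 1.74%), of which 4 were among the 9 H2B windows. Windows of H2B and H2A genes that lie head to head overlap, so the same motif can count for both genes. The 31 windows are thus not all separate stretches of DNA. A match is a description of letters, and a window without one says nothing of factors that may bind elsewhere.

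Histone H4, which pairs with H3 at the heart of the nucleosome and is encoded by many near-identical genes, gave the largest differences of the histone classes. H4c11 ranged from 9.76 to 10.82 over the 32 KO arrays with a median of 10.15, and from 8.64 to 9.42 over the 32 WT arrays with a median of 8.98. Every KO array was above every WT array for this probe. The 24 h mean difference was 1.18 ± 0.05 (SE), or 2.26-fold, with an adjusted p of 4.6e-30. H4c8 ranged from 10.90 to 11.86 in KO (median 11.32) and from 9.72 to 10.66 in WT (median 10.11). The groups did not overlap here either, and the difference was 1.23 ± 0.06, or 2.34-fold (adjusted p = 2.0e-26). H4c12 lay between 8.52 and 9.72 in KO (median 9.11), and between 6.78 and 8.49 in WT (median 7.94). Again no KO array was as low as a WT array, and the difference was 1.25 ± 0.08, or 2.38-fold (adjusted p = 4.6e-21). Such a complete separation of the 32 KO from the 32 WT arrays was seen for 0.24% of all probes.

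For the remaining H4 probes the genotypes overlapped. H4c18 ranged from 7.99 to 9.69 in KO (median 8.91) and from 7.04 to 8.42 in WT (median 7.67), and 29 of the 32 KO arrays exceeded the highest WT array. Its difference was 1.28 ± 0.08, or 2.43-fold (adjusted p = 1.1e-20). H4c9 ranged from 7.85 to 10.03 in KO (median 9.07) and from 6.92 to 8.56 in WT (median 7.92), with 30 KO arrays above the WT maximum. Its difference was 1.20 ± 0.08, or 2.30-fold (adjusted p = 3.9e-19). These 5 probes were ranked between 25 and 36 of 12101 by the size of their increase, and 54 probes, 0.446% of all, were called higher by over 2-fold. The other H4 probes, H4c6 and H4c4, were close to background. H4c6 was detected on 21 of 32 KO and 15 of 32 WT arrays and differed by 0.20 ± 0.10 (adjusted p = 0.101). H4c4 was detected on 14 of 32 KO and 15 of 32 WT arrays and differed by -0.11 ± 0.09 (adjusted p = 0.37).

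The probes for H3, the partner of H4, included 3 on chromosome 13 that were higher in KO, H3c6, H3c4 and H3c7, while the 3 probes of chromosome 3 were not called. The difference between the chromosomes was not tested, and over all probes 17% were higher in KO. H3c6 ranged from 6.14 to 7.57 in KO (median 7.03) and from 5.93 to 6.74 in WT (median 6.23). Of its KO arrays 27 were above the highest WT array, and the difference was 0.71 ± 0.07, or 1.64-fold (adjusted p = 2.1e-14). H3c4 ranged from 6.13 to 7.69 in KO (median 7.12) and from 5.92 to 7.07 in WT (median 6.53), a difference of 0.57 ± 0.06 (adjusted p = 1.1e-12). H3c1 and H3c7 lay near background. H3c1 was detected on 15 KO arrays and 1 WT array and thus kept only through KO, where it had to be high, so its difference of 0.58 ± 0.08 is given as a description. H3c7, detected on 14 KO and 4 WT arrays, was higher by 0.40 ± 0.07 (adjusted p = 8.4e-06). Without background correction the differences were 0.32 for H3c6, 0.27 for H3c4, 0.17 for H3c1 and 0.11 for H3c7, so their size is uncertain. On chromosome 3, H3c13 ranged from 8.89 to 10.32 in KO (median 9.42) and from 8.84 to 9.86 in WT (median 9.38). The genotypes overlapped along nearly this whole range, and the difference was 0.04 ± 0.05 (adjusted p = 0.55). The H3c14 probes, both on chromosome 3, differed by 0.04 ± 0.05 and 0.11 ± 0.07 and were not called, the second of them detected on 5 of 64 arrays.

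**Figure D2:**
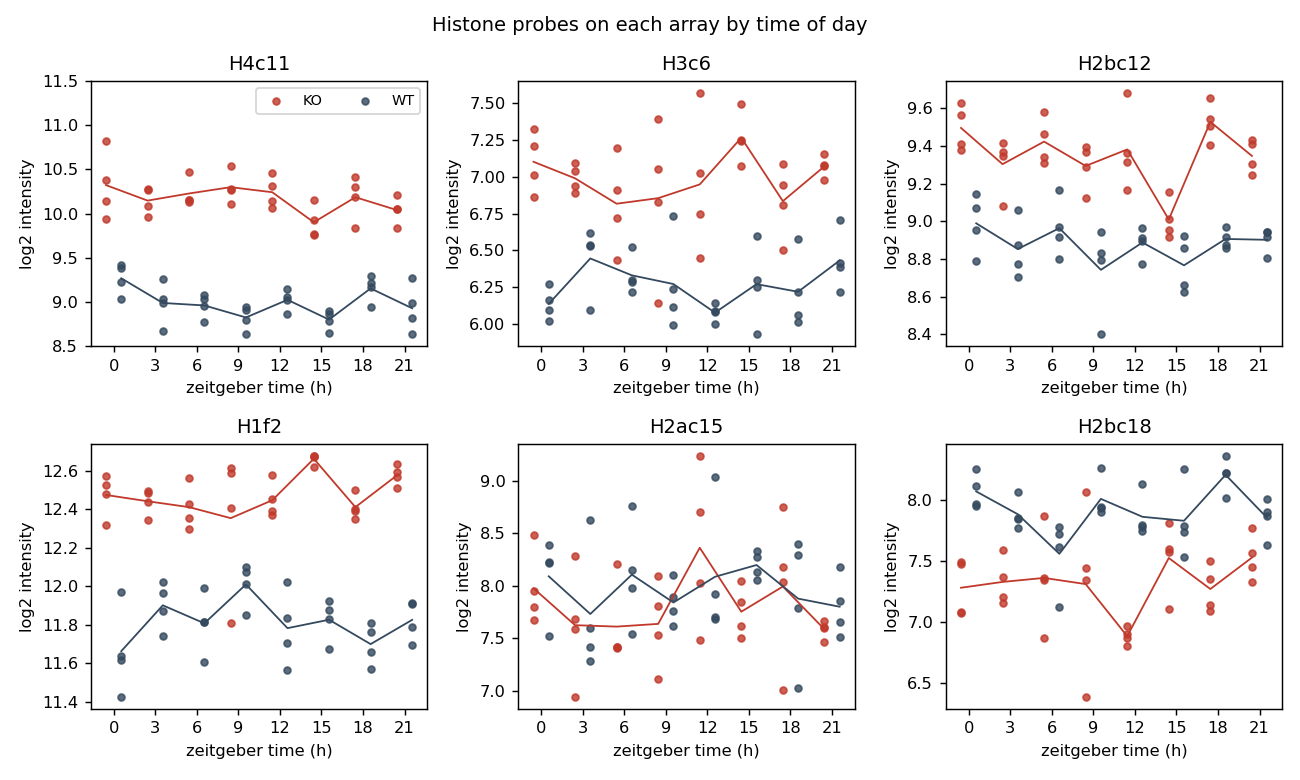
Log2 intensity of 6 histone probes on each of the 64 arrays by zeitgeber time, with KO arrays drawn just left and WT arrays just right of each time and lines through the group means (4 arrays each). KO points of H4c11 lie above all WT points at 8 of 8 times, those of H2ac15 mix with WT points, and those of H2bc18 lie mostly below them.

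H2B, which forms a dimer with H2A in the nucleosome, was higher in KO for 8 of 9 probes on chromosome 13, against 17% of all probes. H2bc6 ranged from 5.87 to 7.11 in KO (median 6.38) and from 4.82 to 6.33 in WT (median 5.51). It was detected on all 32 KO arrays and on 13 WT arrays, and the difference was 0.88 ± 0.08, or 1.84-fold (adjusted p = 3.0e-14). Without background correction the H2bc6 difference was 0.29, so its size depends on how the dim WT signal is treated. H2bc12 ranged from 8.92 to 9.68 in KO (median 9.37) and from 8.40 to 9.17 in WT (median 8.91). Its difference was 0.47 ± 0.04, or 1.39-fold (adjusted p = 1.4e-16), with 26 KO arrays above the WT maximum. H2bc14 ranged from 8.48 to 9.74 in KO (median 8.89) and from 7.80 to 8.77 in WT (median 8.40), and was higher by 0.60 ± 0.06 (adjusted p = 8.0e-12). H2bc4 had 2 kept probes. The one detected on all 64 arrays ranged from 11.26 to 11.99 in KO (median 11.80) and from 10.85 to 11.68 in WT (median 11.42), and was higher by 0.37 ± 0.04 (adjusted p = 1.4e-12). The other, detected on 27 of 64 arrays, gave 0.11 ± 0.09 (adjusted p = 0.4).

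H2bc7, H2bc9, H2bc15 and H2bc11 were each between 0.54 and 0.60 higher in KO, with adjusted p between 2.3e-08 and 1.2e-06. Their arrays overlapped more: between 6 and 8 of the 32 KO arrays exceeded the highest WT array. Within ZT 3, 9, 15 and 21 alone their differences were between 0.32 and 0.37, still past the threshold. H2bc18, the single kept H2B probe of chromosome 3, went the other way. It ranged from 6.38 to 8.06 in KO (median 7.35) and from 7.12 to 8.36 in WT (median 7.90). It was 1.51-fold lower in KO, a log2 difference of -0.60 ± 0.07 (adjusted p = 7.5e-10), and below 0 at 8 of 8 times. Without background correction the difference was -0.36. H2bc18 was the 1 histone probe called lower. A second H2bc18 probe was detected on 0 of 64 arrays, so the decrease of this gene rests on 1 probe.

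H1f2, which encodes the linker histone H1.2, was the single linker gene measured. It ranged from 11.81 to 12.68 in KO (median 12.49) and from 11.43 to 12.10 in WT (median 11.82). Of the KO arrays 31 lay above the highest WT array, and the difference was 0.66 ± 0.04, or 1.58-fold (adjusted p = 2.0e-22). The lowest KO array was one of the 4 hearts of ZT9.

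H2A, the partner of H2B, had few called probes, and the difference between its chromosomes was not tested. Of the 7 kept probes on chromosome 13, 0 passed the test in either direction (34.4% of all probes did), with differences between -0.21 and 0.01. H2ac15, for example, ranged from 6.94 to 9.24 in KO (median 7.68) and from 7.02 to 9.03 in WT (median 7.95), and differed by -0.15 ± 0.11 (adjusted p = 0.327). The SD among the 4 arrays of a group was large for these probes, between 0.41 and 0.57, against a median of 0.26 over all probes. The arrays that were high were shared between them: the 6 of these probes detected on every array had the same array as the highest of its group in 9 of 16 groups, and the same lowest array in 8. On chromosome 3, 2 of 3 probes were higher in KO (17% of all probes were). H2ac18 ranged from 7.83 to 9.05 in KO (median 8.30) and from 7.57 to 8.47 in WT (median 7.93), a difference of 0.39 ± 0.06, or 1.31-fold (adjusted p = 4.4e-07). H2ac20 ranged from 10.89 to 11.71 in KO (median 11.15) and from 10.55 to 11.45 in WT (median 11.03). Its difference of 0.16 ± 0.05 (adjusted p = 0.009) was the smallest of those called. Within ZT 0, 6, 12 and 18 alone it was 0.17 (adjusted p = 0.131), and within ZT 3, 9, 15 and 21 alone 0.15 (adjusted p = 0.083), so its call rests on both sets of times. Median scaling gave 0.26 for H2ac20. H2ac21 differed by 0.11 ± 0.08 (adjusted p = 0.317).

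Some H2B and H2A genes lie head to head and are transcribed away from a shared stretch of promoter. In 3 such pairs both genes were detected on all 64 arrays, with annotated starts 174 bases apart for H2bc7 and H2ac7, 178 for H2bc12 and H2ac12, and 164 for H2bc15 and H2ac15 (RefSeq, GRCm38.p6). The pair of H2bc11 and H2ac11 was not compared, because H2ac11 was detected on 10 of 64 arrays and could not show a decrease. The comparison of the partners was added after the H2B probes were seen to be higher and the H2A probes not to be called. Its p-values describe these same values and are not separate evidence. The 3 pairs were read on the same arrays, with high and low arrays shared among the H2A probes, so they are not independent. On each array the H2A value was subtracted from the H2B value, and the KO minus WT difference of that quantity was tested by 100000 permutations of genotype within each time, two-sided. H2bc7 gained 0.80 ± 0.16 over H2ac7 (SE, 32 arrays per genotype, permutation p = 2e-05, 2e-05 after adjustment over the 3 pairs). H2bc15 gained 0.71 ± 0.14 over H2ac15 and H2bc12 gained 0.62 ± 0.13 over H2ac12 (permutation p = 1e-05 for each, the smallest these permutations can give, 1.5e-05 adjusted). The difference was positive at 8 of 8 times for each of the 3 pairs. Without the 6 arrays of lowest sample number, described with the single times, the gains were 0.77 for H2bc7, 0.68 for H2bc15 and 0.70 for H2bc12.

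**Figure D3:**
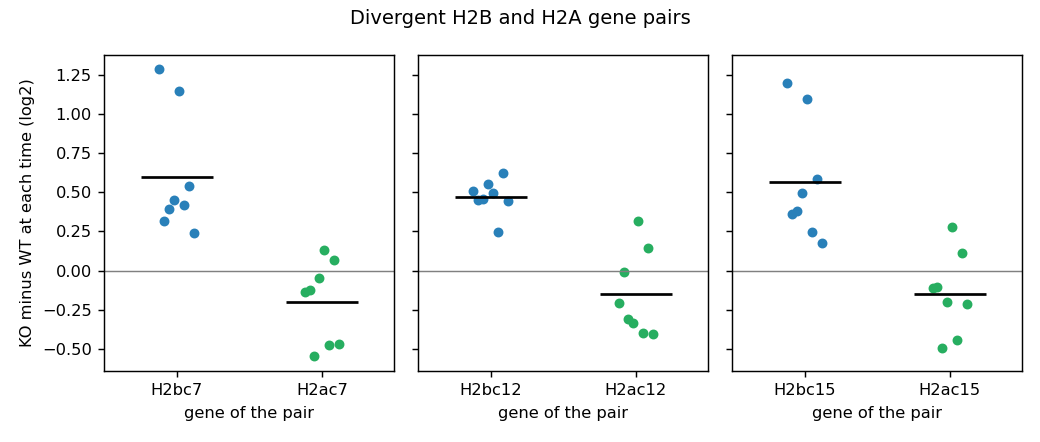
KO minus WT difference (log2 intensity) at each of the 8 times for the genes of 3 head-to-head pairs, with H2B on the left, H2A on the right and a black line at the mean. The H2B means lie between 0.47 and 0.60, and the H2A means between -0.20 and -0.15.

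Fitted 24 h rhythms of histone transcripts were small. The fitted amplitude, the height of the curve over its mean, lay between 0.03 and 0.26 in KO and between 0.06 and 0.24 in WT on the log2 scale. These amplitudes leave out any shift between ZT 0, 6, 12 and 18 and the other times, which had its own term. The H3c14 probe detected on all 64 arrays averaged 8.62, 8.74, 8.76 and 8.69 in WT at those times. At ZT 3, 9, 15 and 21 it averaged 9.34, 9.22, 9.14 and 9.14 in WT. Its KO means and those of H3c13 alternated likewise. Sample numbers ran from 1 to 154 in the first set and from 156 to 209 in the second. Time and sample number thus cannot be told apart here, and the shift was not tested. In limma 0 of 35 probes had a rhythm in KO at an adjusted p under 0.05 (1.17% of all probes did), 0 had one in WT (3.55% of all probes) and 0 had a different rhythm between the genotypes (0.24%). At an unadjusted p under 0.05 these counts were 1, 7 and 2 of 35, against 1689, 1738 and 553 of 12101. The 7 probes in WT were H3c1, H2bc4, H3c13, H4c9, H4c18, H3c4 and H4c12, with amplitudes between 0.11 and 0.24. The fits of H2bc4, H4c9, H4c18, H3c4 and H4c12 peaked between ZT 21.5 and ZT 23.2 in WT, that of H3c1 at ZT 1.90 and that of H3c13 at ZT 6.31. In WT, H3c1 passed with the authors' processed values (adjusted p = 0.0269) and with array weights (0.0496), and H2bc4 with array weights (0.0357), so the absence of a call for these probes depends on the processing. H3c1 was detected on 1 of 32 WT arrays. Its WT amplitude, peak and calls are thus fits to values near background and are not read as a rhythm.

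At single times, with 4 arrays per genotype, 5 H4 probes and H1f2 were called at 7 or 8 of the 8 times, and the H2B probes at between 2 and 7, apart from the H2bc4 probe that was seldom detected. At ZT 0, 17 of the 35 probes were higher in KO and 1 was lower, where 5.83% and 4.92% of all probes were. At ZT 3, 8 were higher and 0 lower (1.96% and 1.78%). At ZT 6 the counts were 11 and 0 (2.18% and 1.56%). ZT 9 gave 12 higher and 1 lower (4.14% and 4.4%), and ZT 12 gave 17 and 1 (3.26% and 3.55%). For ZT 15 they were 10 and 0 (2.89% and 2.3%), for ZT 18 12 and 1 (2.82% and 2.55%), and for ZT 21 8 and 0 (2.35% and 1.98%). The probe called lower was H2bc18 each time. The higher counts at ZT 0, 12, 15 and 18 include H3c1, which was kept only through KO, where it had to be high. H4c11, H4c8, H4c12, H4c9 and H1f2 passed at 8 of 8 times, and H4c18, H2bc12 and H2bc6 at 7.

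**Figure D4:**
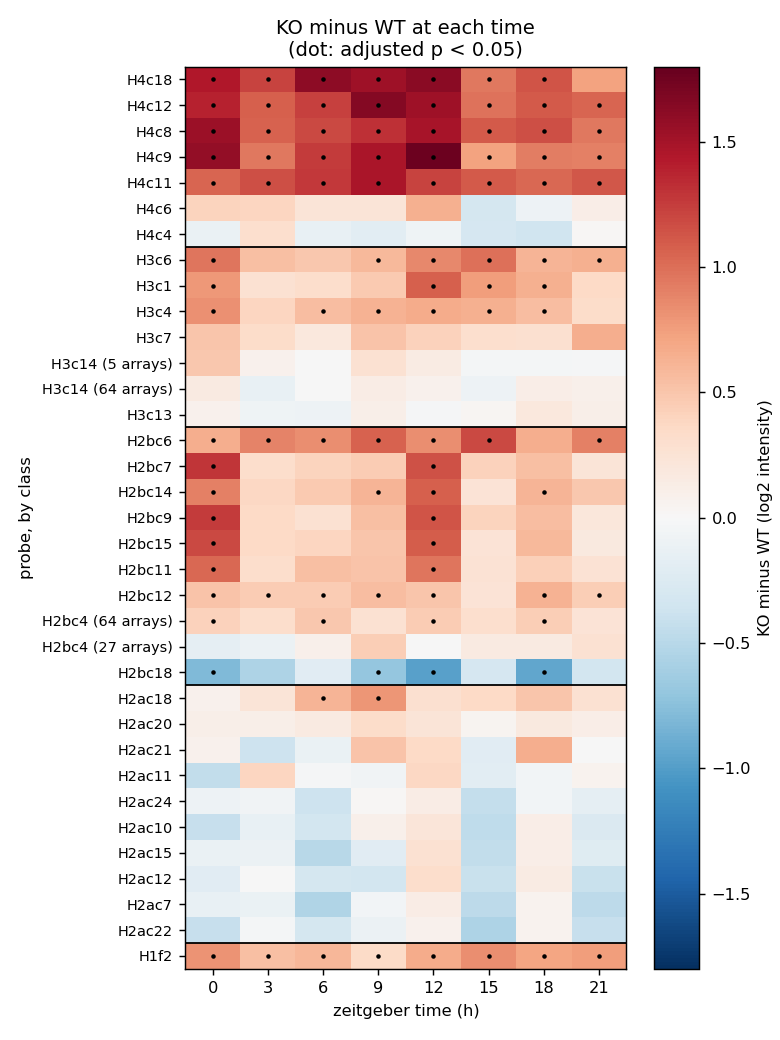
KO minus WT difference in log2 intensity of the 35 histone probes (rows, by class) at the 8 zeitgeber times (columns), with red higher and blue lower in KO and a dot where the adjusted p was under 0.05. The H4 rows from H4c18 to H4c11 are red throughout, between 0.73 and 1.77, and several H2B rows are darkest at ZT 0 and ZT 12, each with a pair of KO arrays of low sample number.

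H4c11 at ZT 9 read 10.11, 10.27, 10.28 and 10.54 in KO and 8.64, 8.80, 8.91 and 8.94 in WT. This was its widest gap, 1.47 or 2.78-fold (adjusted p = 1.3e-11). At each of the 8 times the lowest KO array of H4c11, H4c8, H4c12 and H4c9 was above the highest WT array, which held for 0.603% of all probes. H4c9 at ZT 12 read 8.91, 9.17, 9.82 and 10.03 in KO and 7.27, 7.77, 7.80 and 8.02 in WT. The difference of 1.77 there was the largest of any histone probe at any time. H1f2 differed by between 0.34 at ZT 9 and 0.84 at ZT 15.

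H2bc7 at ZT 0 read 9.98, 10.16, 11.05 and 11.14 in KO and 8.91, 9.38, 9.42 and 9.48 in WT. At ZT 12 it read 10.07, 10.13, 11.06 and 11.15 in KO and 9.41, 9.46, 9.47 and 9.48 in WT. The groups did not overlap at these times, and a pair of KO hearts stood well above the other pair at both. The differences were 1.29 at ZT 0 and 1.15 at ZT 12, and between 0.24 and 0.54 at the other times, where they were not called. H2bc9, H2bc15 and H2bc11 were likewise called at ZT 0 and ZT 12 and not at the other times, with differences between 0.96 and 1.26 at those 2 times. H2bc14 was called at ZT 0, 9, 12 and 18. These differences rest in part on low WT values. The WT mean of H2bc7 was 9.30 at ZT 0 and 9.46 at ZT 12, and between 9.53 and 10.05 at the other times. For H2bc9 and H2bc11 the WT means were also lowest at these 2 times. H2bc14 and H2bc15 differed in this, with WT means at ZT 9 below those at ZT 12. The differences also rest in part on arrays with low sample numbers. The 6 arrays numbered under 30 are KO ZT0 replicates 6 and 8, KO ZT12 replicates 19 and 22, KO ZT6 replicate 2 and WT ZT6 replicate 1, thus 5 KO and 1 WT. For H2bc7, H2bc9, H2bc11, H2bc14 and H2bc15 they were the highest arrays of their groups in 30 of 30 cases. Only 1 of the 6 is WT, so WT is covered by a single array. The cut at 30 was set after the values were seen, so these cases do not test it. Arrays of the next numbers went the other way for H2bc7. WT ZT12 replicate 30 read 9.41 and KO ZT6 replicate 32 read 9.64, each the lowest of its group. The 30 cases are 6 arrays read by 5 probes of near-copy genes, so they are not 30 separate observations. The same arrays were also the highest of their groups for H4c18, H4c8 and H4c9, and in most cases for H4c12 and H4c11. The upper pair of KO hearts for H2bc7 at each time, and the upper pair for H4c9 at ZT 12, are these arrays. Without the 6 arrays, chosen after the data were seen, H2bc7 differed by 0.77 at ZT 0 and 0.64 at ZT 12 (limma adjusted p = 0.0017 and 0.0118), with 2 KO and 4 WT arrays at each. H2bc11 then differed by 0.64 and 0.52 (adjusted p = 0.0389 and 0.133), and H2bc15 by 0.75 and 0.66 (0.0528 and 0.108). H2bc9 differed by 0.70 and 0.71 (0.0387 and 0.0358), and H2bc14 by 0.48 and 0.80 (0.0899 and 5.3e-04). The H4 probes kept their calls at these times, most with smaller differences. H4c9 differed by 1.29 and 1.33 in place of 1.59 and 1.77, and H4c18 by 1.23 and 1.16 in place of 1.45 and 1.62. H4c8 differed by 1.28 and 1.19 in place of 1.53 and 1.49, and H4c12 by 1.26 and 1.17 in place of 1.39 and 1.52. H4c11 differed by 1.11 and 1.08 in place of 1.05 and 1.22. The count of histone probes higher at ZT 0 was 12 and at ZT 12 was 11 without these arrays. Over 24 h the H2bc7 difference was 0.46, and 20 histone probes were higher and 1 lower as before. Whether anything else sets the low numbers apart is not stated in the labels and was not tested. In 10 of the 16 groups these 5 H2B probes had the same highest array. Whether the KO minus WT difference was the same at all 8 times was tested by an F test in limma, added after the data were seen. None of the 35 probes passed after adjustment (smallest adjusted p = 0.542, 0.165% of all probes passed), and 8 of 35 had an unadjusted p under 0.05, against 6.56% of all probes. Of those 8, 6 were H2B probes. Without the 6 arrays 1 of 35 had an unadjusted p under 0.05 and it was not an H2B probe, against 4.76% of all probes. These arrays were picked after the values were seen and 5 of the 6 are KO. The drop thus follows in part from the choice and is not a test of it. H2bc18 at ZT 12 read 6.80, 6.86, 6.90 and 6.96 in KO and 7.74, 7.78, 7.79 and 8.13 in WT, its widest gap at -0.98 (adjusted p = 0.00038). At ZT 6 its KO values of 6.86, 7.34, 7.36 and 7.87 overlapped WT values of 7.12, 7.61, 7.72 and 7.78 (adjusted p = 0.74).

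The 29 probes that did not pass the detection filter were 4 for H4, 5 for H3, 6 for H2B, 5 for H2A and 9 for H1, and 26 of them were detected on no array. They were H4c2, H4c3, H4c14 and H4f16 for H4, and H3c3, H3c8, H3c10 and further probes of H3c7 for H3. For H2B they were H2bc1, H2bc3, H2bc8, a second H2bc18 probe, H2bu1-ps and H2bu2. For H2A they were H2ac1, H2ac4, H2ac6, H2ac8 and H2aw, and for H1 they were H1f1, H1f3, H1f4, H1f5, H1f6, H1f7, H1f8 and H1f10. A probe that is not detected here gives no level, whatever the transcript's amount in the tissue.

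Histone variants are encoded outside the clusters, and most are also made outside S phase from transcripts with a poly(A) tail. Of 7 measured, 2 were higher and 2 lower in KO (17% and 17.4% of all probes were), with a median difference of 0.11, against -0.01 over all probes. Cenpa, the H3 variant that marks centromeres, was at 12.16 in KO and 11.30 in WT, higher by 0.86 ± 0.03 (adjusted p = 4.2e-31). H2ax, the H2A variant phosphorylated at DNA breaks, was higher by 0.25 ± 0.05 (adjusted p = 5.0e-05). H3f3a and H3f3b, which both encode H3.3, were lower by small amounts, at -0.21 ± 0.07 (adjusted p = 0.0108) and -0.11 ± 0.04 (adjusted p = 0.0166).

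Genes of histone supply, which process histone transcripts or carry and deposit the proteins, were mostly not called: 1 of 14 measured was higher and 1 lower, against 17% and 17.4% of all probes, with a median of -0.03. Ipo4, an importin that carries histones into the nucleus, was higher by 0.23 ± 0.05 (adjusted p = 3.8e-04). Hat1, which acetylates new H4, was lower in KO, at -0.19 ± 0.04 (adjusted p = 2.0e-05). Rbbp7, a histone-binding partner of Hat1, differed by 0.31 ± 0.13 (adjusted p = 0.0569), and Anp32e, a chaperone of H2A.Z, by -0.10 ± 0.05 (adjusted p = 0.123). Slbp, whose protein binds the histone stem-loop, was among 9 genes of this list not detected.

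Genes of DNA replication and proliferation gave 0 higher and 6 lower of 14 measured, against the same 17% and 17.4% of all probes, with a median of -0.09. Mcm4 and Mcm5, subunits of the replicative helicase, differed by -0.23 ± 0.04 (adjusted p = 1.3e-05) and -0.21 ± 0.06 (adjusted p = 0.0046). Pcna, the sliding clamp of DNA polymerases, was lower at -0.45 ± 0.10 (adjusted p = 1.1e-04), and Uhrf1, which maintains DNA methylation at replication, at -0.32 ± 0.08 (adjusted p = 0.0019). Pcna was at 5.45 in KO and 5.90 in WT, and Uhrf1 at 5.79 and 6.11. Cdt1 (5.76 and 5.95) and Pole (5.07 and 5.27) were also among the lower genes. These levels are near that of H4c6 (5.75 and 5.55), described above as close to background, so the size of these 4 differences is uncertain. Another 12 genes of this list were not detected, among them Top2a, Rrm2, Ccna2 and Cdk1, which mark dividing cells.

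**Figure D5:**
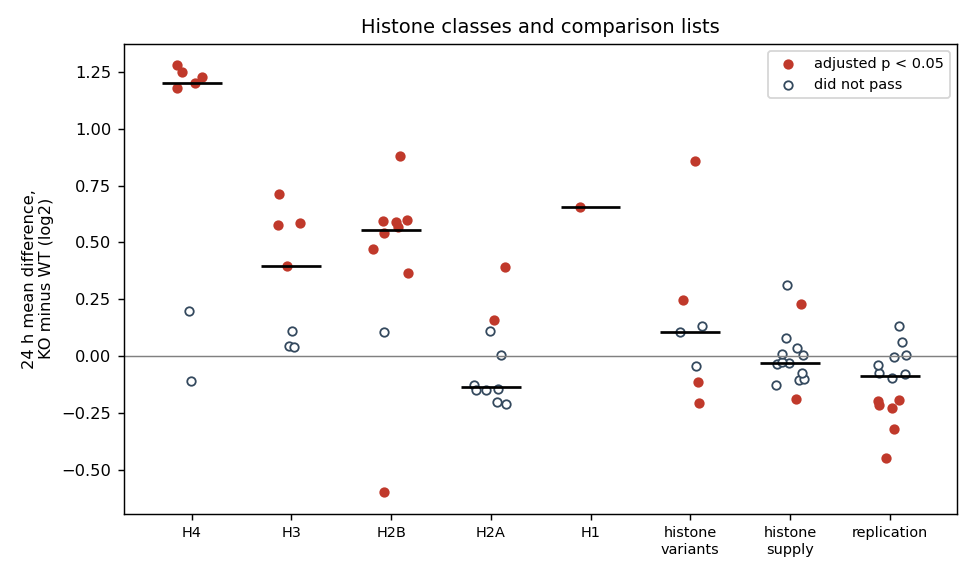
Difference of the 24 h mean, KO minus WT in log2 intensity, for each measured probe of the 5 histone classes and each measured gene of 3 comparison lists, with a black line at the median. The H4 median is 1.20, the medians of histone supply and replication are -0.03 and -0.09, and no replication gene that passed is above 0.

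Markers of the cell types of the heart were read beside these values, at the same threshold, by which 17% of all probes were higher and 17.4% lower. All 9 cardiomyocyte markers on the array were detected, and their summed linear level ranged from 133001 to 161515 in KO and from 135556 to 164925 in WT, with 1 higher and 4 lower in KO. Endothelial markers were lower for 5 of 9, with sums from 9345 to 12937 in KO and from 9995 to 12293 in WT, and Kdr was not detected. Fibroblast markers were higher for 3 of 9, with sums from 10145 to 16139 in KO and from 11736 to 16132 in WT. Myeloid markers were lower for 5 of 10, with sums from 4760 to 8248 in KO and from 4849 to 10328 in WT. Smooth muscle and pericyte markers were lower for 1 of 6, with sums from 4587 to 9095 in KO and from 5174 to 9911 in WT, and Cnn1 was not detected. Erythroid markers were lower for 1 of 4, with sums from 17737 to 39378 in KO and from 19717 to 40528 in WT, and Epb42 was not detected. Of the lymphocyte markers 1 was measured and not called, with levels from 119 to 337 in KO and from 138 to 328 in WT, and Cd3e, Cd3g, Cd79a, Cd79b, Ms4a1, Nkg7 and Ptprc were not detected. The part of these markers in the histone differences was not tested.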

How the data were processed

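Whole-heart RNA of 64 samples in 16 groups was hybridised to Illumina MouseRef-8 v2 arrays. Per the labels' protocols, RNA was isolated with Tri-reagent, primed with oligo(dT) and turned into biotin-labelled cRNA. The authors deposited a mean bead intensity for each probe on each array, per the file headers, with no normalization visible in the values, and beside it a detection p-value. The authors also deposited a processed intensity, used as an alternative. Its values are linear and some are below 0. Its scale and centring, and the software behind both, are not given in the sources used here.

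Here intensities were background corrected with normexp from the detection p-values (offset of 16), quantile normalized and log2 transformed with limma 3.58.1 in R 4.3.3. The 12101 probes whose detection p was under 0.01 on 4 or more arrays were kept. Each probe's fit had, per genotype, a mean plus cosine and sine terms of 24 h, and a term for the set of times (ZT 0, 6, 12 and 18 against ZT 3, 9, 15 and 21), with 1 shared spread. Single times were compared in a fit with a mean per group. Benjamini-Hochberg adjustment covered all kept probes, with a threshold of 0.05. Means over 24 h are those of the cosine fit. The fits were tested on simulated data.

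The text names every probe called in the 24 h mean or a rhythm, 1 further probe per class, and the 4 genes with the smallest adjusted p of each comparison list. Members and lists were chosen with earlier results of these data known. Symbols come from the platform annotation and promoters from RefSeq. Of 2016 pairs of arrays, 0 held identical values. No genes were compared by level, since probes differ in brightness. Alternatives changed the background correction, the normalization, the filter, the probes per gene, the time set, the array weights and the arrays used.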

Additional observations from a re-analysis of the deposited data

Results flagged for a closer look

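In a group of 4 arrays, the value of 1 array was marked when its gap to the nearest other array, divided by the range of the group, was above the critical value of Dixon's test. This was run for 22 histone probes in 16 groups, 352 groups of values, and 22 were marked, on 18 arrays. Chance marks about 1 in 20 groups. All values are log2 intensities, followed by the range of the 3 other arrays.

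WT ZT6 replicate 1, one of the arrays that spread most, was marked for several probes, each time as the highest. It read 8.56 for H4c9 (others 7.68 to 7.80), 10.41 for H2bc7 (9.60 to 9.68), 8.77 for H2bc14 (8.44 to 8.47) and 9.69 for H3c13 (9.04 to 9.15). WT ZT12 replicate 30 was highest for both called H2A probes, at 8.35 for H2ac18 (7.91 to 7.95) and 11.45 for H2ac20 (10.88 to 10.97).

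Other KO arrays stood apart as follows. H4c11 read 10.47 on KO ZT6 replicate 32 (10.13 to 10.16). H4c8 read 11.51 on KO ZT21 replicate 160 (11.18 to 11.23). H4c12 read 8.92 on KO ZT0 replicate 129 (9.49 to 9.56) and 9.51 on KO ZT9 replicate 205 (9.01 to 9.07). H3c4 read 6.95 on KO ZT15 replicate 178 (7.23 to 7.27). H3c13 read 9.48 on KO ZT6 replicate 2 (9.03 to 9.07) and 9.42 on KO ZT3 replicate 167 (9.62 to 9.65). H2bc11 read 10.26 on KO ZT3 replicate 165 (10.03 to 10.07) and 9.49 on KO ZT9 replicate 170 (10.10 to 10.20). H2bc15 read 8.85 on KO ZT21 replicate 192 (8.93 to 8.95), and H1f2 read 12.62 on KO ZT15 replicate 182 (12.67 to 12.68).

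Among WT arrays, H3c6 read 6.09 on ZT3 replicate 164 (6.53 to 6.62) and H2bc7 read 8.91 on ZT0 replicate 87 (9.38 to 9.48). H2bc14 read 8.66 on WT ZT3 replicate 184 (8.38 to 8.42). H2bc18 read 8.13 on WT ZT12 replicate 154 (7.74 to 7.79) and 8.27 on WT ZT9 replicate 175 (7.90 to 7.94). With any 1 of these arrays left out, each named probe kept its direction and its side of the threshold in the 24 h mean.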

How the results depend on the processing

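Across 13 alternatives the number of histone probes higher in KO stayed between 18 and 21 and the number lower at 1, and leaving out any 1 of the 64 arrays gave 20 to 21 and 1. The 21 called probes kept their direction and side of the threshold under every alternative that could measure them, except H2ac20 within each set of times (0.17 and 0.15). H3c13, called under none, lay between -0.00026 and 0.14. Without background correction the median over the histone probes was 0.17 in place of 0.39, and without the filter it was 0.03 over all 64 histone probes, 26 of them detected on no array. Over all probes, median scaling gave 2969 higher and 824 lower in place of 2059 and 2100, with rhythms in 51 probes in KO and 240 in WT and 14 rhythm differences (142, 430 and 29 in the fit reported). Within ZT 0, 6, 12 and 18 alone these were 21, 113 and 10. Within ZT 3, 9, 15 and 21 alone, 1266 probes were higher and 1111 lower, 131 were rhythmic in WT and 12 differed. Array weights gave 219, 716 and 47, with 2 histone probes rhythmic in WT, and the authors' processed values gave 1. Each of these WT counts of histone probes includes H3c1, which was detected on 1 WT array. The cause of these shifts was not tested, except that each set of times holds fewer arrays by construction. Without the 6 arrays numbered under 30, an alternative chosen after seeing the data, 11 histone probes were higher at ZT 12 in place of 17, 12 at ZT 0, and 1 was rhythmic in WT. No other alternative moved a single-time count of higher histone probes by more than 1.5 times. No paired analysis was possible because the sample numbers are all different. The beadchip was not run as a block, since the headers read here give none. Dim probes (H3c1, H3c7, H2bc6) have the least certain sizes.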
